A study of Homo sapiens with 4 samples.

Results

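BIRC2 and 7 genes that work with it, BIRC3, XIAP, BIRC6, TRAF2, RIPK1, DIABLO and HTRA2, were followed in RNA pulled out of DU-145 cells with tagged miR-26a. DU-145 is an established human prostate cancer line that does not depend on androgen. The genes were taken as the transcript rows whose RefSeq accession maps to these 8 symbols, and the set was chosen by the FPKM of BIRC2, which was strongly raised in the tagged pull-out. They are 8 of 25672 genes and unnamed transcripts in the tables, and all 8 were among the 9932 genes tested. Each value below is an FPKM, fragments per kilobase of transcript corrected for the library's mapped fragments, summed over the transcript rows of a gene.

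The biotin group was 2 libraries from cells given a mixture of miR-26a duplexes with biotin at the 3′ end, carrying the photo-crosslinking base thiouridine at nucleotide 7 or at nucleotide 17. The control group was 2 libraries from cells given a miR-26a duplex with neither modification. Both groups received 60 nM duplex 24 h after seeding, 2 J/cm2 of light at 365 nm and 4 h on streptavidin beads, so both contained added miR-26a. Biotin and thiouridine came together, and the mixture of crosslinking positions was not resolved. Each library was RNA kept by the beads, and RNA from before the beads was not analysed here. Recovery on the beads and abundance in the cell therefore cannot be told apart, nor can fewer cells with an RNA and less of it per cell.

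Estimated depth was 17563717 and 23639904 mapped reads in the biotin libraries, and 16029234 and 17834245 in the control libraries. A transcript of 1 kb with 3 reads would have 0.127 to 0.187 FPKM, a limit set by counting error alone. Of 10 epithelial markers of DU-145, 9 reached 1 FPKM in at least 2 libraries, and KRT5 was at 0. KLK2 and KLK3, which this line lacks, were at 0 in all 4 libraries. Blood markers summed to 1.30 to 2.57 FPKM in biotin and 0.372 to 0.675 FPKM in control, nearly all of it CD14, with PTPRC, CD3E and HBB at 0. Markers of endothelium and fibroblasts summed to at most 0.364 FPKM in any library.

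The inhibitor of apoptosis proteins carry BIR domains, folds that bind caspases or the proteins that regulate them. XIAP blocks caspases directly. BIRC2 and BIRC3, also called cIAP1 and cIAP2, are ubiquitin ligases that TRAF2 brings to the TNF receptor, where they modify RIPK1 and so favour NF-kB signalling over cell death. BIRC6 is a very large ubiquitin ligase of the same family. DIABLO and HTRA2 leave the mitochondria of dying cells and displace caspases from these inhibitors. A microRNA recognises most mRNAs through its seed, nucleotides 2 to 8, and further pairing can come from the rest of the microRNA.

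The mature miR-26a sequence is shown first because the windows after it are read against it. It is from RefSeq (GRCh38.p14), encoded at chr3:37969413-37969434 on the plus strand and at chr12:57824658-57824679 on the minus strand. Capitals mark the seed.
hsa-miR-26a-5p: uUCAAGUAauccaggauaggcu

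Uridines stand at nucleotides 7 and 17, the positions of the thiouridine. A full seed match in an mRNA reads TACTTGA, and the shorter match to nucleotides 2 to 7 reads ACTTGA. Both were searched on the transcript strand, and the 7-letter match contains the 6-letter one.

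The longest stretch of BIRC2 that is complementary to miR-26a was not a seed match. It had 12 letters, lay in the coding sequence, faced nucleotides 9 to 20 of miR-26a and was present in all 3 BIRC2 transcripts. BIRC3, the neighbouring gene of the same family, had 11 of these letters at the corresponding place, and its longest unbroken run there was 9 letters. The windows below are from GENCODE 29 transcripts on GRCh38, plus strand, at chr11:102377549-102377578 for BIRC2 and at chr11:102336019-102336048 for BIRC3. Capitals mark letters that pair with nucleotides 9 to 20.
BIRC2 coding window: tgtgtgcttCCTATCCTGGATaatctttta
BIRC3 coding window: tgtgtaattCCaATCCTGGATagtctacta

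Both windows begin 438 nt before the end of their coding sequence, and 24 of their 30 bases are identical. Counted from 1 at the 5′ end of the window, with the BIRC2 base first, the differences are G6A, C7A, T12A, A23G, T27A and T28C. T12A alone falls inside the run. It lies opposite nucleotide 18 of miR-26a, beside the thiouridine position 17.

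A run of 12 or more letters was present in 0.305% of the 9180 genes with a transcript to search, and one of 9 or more in 16.3%. Besides BIRC2, the whole 12-letter stretch occurred in FKBP14, a protein-folding enzyme of the endoplasmic reticulum, named here after its values were seen. Its match is a letter longer, facing nucleotides 8 to 20, and lies in the 3′ UTR at chr7:30013198-30013227 on the minus strand (GRCh38).
FKBP14 3′ UTR window: aataaataCCTATCCTGGATTttaaaaaag

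BIRC2, on chromosome 11 at 102347182 to 102378670 (hg38), had 124.7 and 110.5 FPKM in biotin and 8.65 and 9.53 FPKM in control. Every biotin library stood above every control library, and the smallest ratio between them was 11.6. The means were 117.6 ± 10.0 FPKM in biotin and 9.09 ± 0.621 FPKM in control (SD, n = 2 each). These levels rest on an estimated 7020 and 8903 reads in biotin and 538 and 615 reads in control. The log2 fold change, on the scale of log2(FPKM + 1), was 3.55 ± 0.18 (SE). Of the 9932 tested genes, 10 had a larger one. Since BIRC2 was picked for this difference, it is given as a description and with no p.

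**Figure D1:**
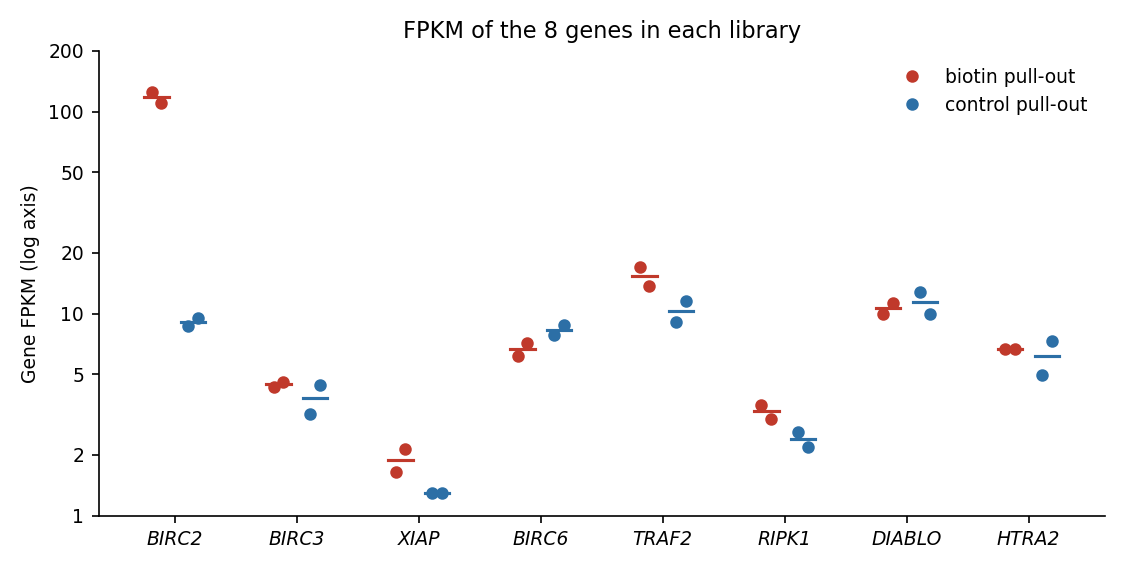
FPKM of the 8 genes on a log axis, with biotin pull-out libraries in red to the left of control pull-out libraries in blue, a point per library and a bar at the mean of 2. BIRC2 stands at 124.7 and 110.5 FPKM in biotin and at 8.65 and 9.53 FPKM in control, while the other 7 genes have biotin and control points close together.

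By listed FPKM, BIRC2 was the highest of the 4 inhibitors in every library. It made up 91.1% and 88.8% of the summed FPKM of BIRC2, BIRC3, XIAP and BIRC6 in biotin, and 41.3% and 39.6% in control. BIRC6 held 4.53% and 5.75% of that sum in biotin and 37.3% and 36.5% in control. The ratio of BIRC2 to BIRC3 was 28.7 and 24.1 in biotin and 2.71 and 2.14 in control. In the control libraries BIRC2 stood at about the level of BIRC6, per length, and in the biotin libraries far above it. The confidence intervals listed for BIRC6 in control, 12.67 to 13.94 and 13.55 to 14.74 FPKM, do not contain its FPKM. They lie above BIRC2, so the order of these genes in control, and their shares there, are not settled. Without BIRC2, the other 7 genes summed to 49.3 and 48.7 FPKM in biotin and 41.9 and 45.5 FPKM in control.

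The BIRC2 total came from 3 transcript rows. NM_001166, of 3796 nt, had 72.7 and 80.3 FPKM in biotin and 5.96 and 7.09 FPKM in control. The shorter NM_001256166, of 2393 nt, had 51.9 and 30.2 FPKM in biotin and 0 and 1.37 FPKM in control. NM_001256163, of 4073 nt, was listed at 0 in both biotin libraries and had 2.69 and 1.07 FPKM in control. NM_001166 held 58.3% and 72.7% of the gene's FPKM in biotin and 68.9% and 74.4% in control, so its share overlapped between the groups. NM_001256166 held 41.7% and 27.3% in biotin and 0% and 14.4% in control, so its share did not overlap. With NM_001166 in place of the gene sum, the log2 fold change was 3.37. The rows share most of their exons, and the division of single reads of 50 bases among them is the authors' estimate.

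**Figure D2:**
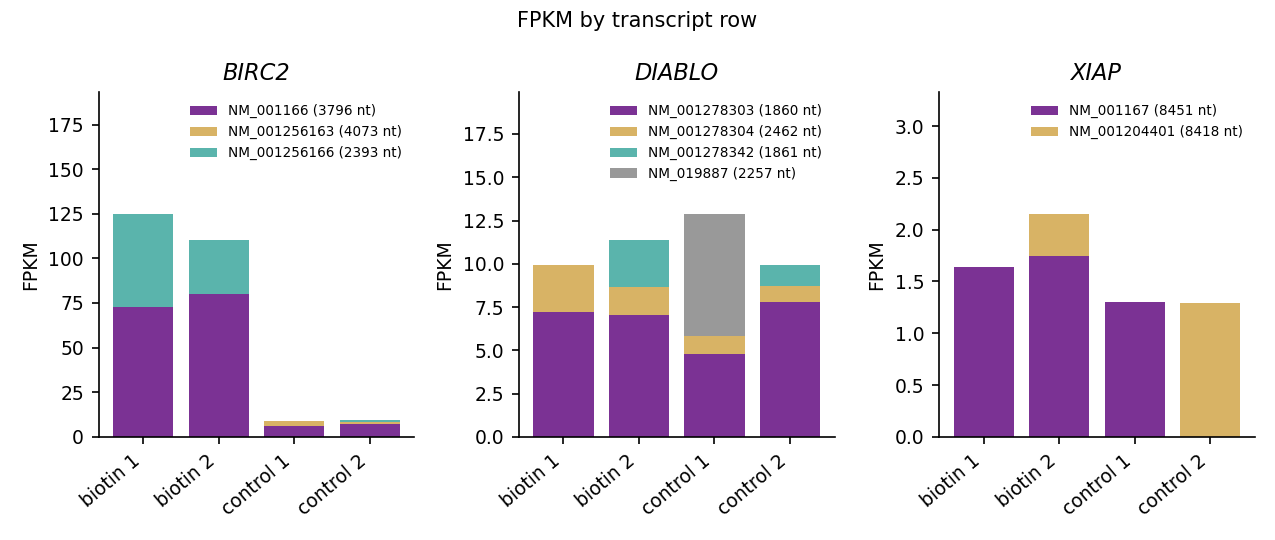
FPKM stacked by transcript row for BIRC2, DIABLO and XIAP in each library, biotin to the left of control, on linear axes that start at 0 and differ between panels. In BIRC2 the row NM_001166 leads in all 4 libraries, with 72.7 and 80.3 FPKM in biotin and 5.96 and 7.09 FPKM in control, and in XIAP the row that carries the gene changes from library to library.

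BIRC3 (chromosome 11, 102317450 to 102339403), the paralogue next to BIRC2, had 4.35 and 4.59 FPKM in biotin and 3.20 and 4.45 FPKM in control. The groups overlapped, and the log2 fold change was 0.19 ± 0.17. Its reads were all placed on NM_001165, while NM_182962 was at 0 in the 4 libraries. Of the 50-base words in BIRC2 transcripts, 0.26% also occur in another gene, in each case BIRC3. At 50 bases the paralogues thus share few reads.

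XIAP (chromosome X, 123859812 to 123913979), the direct caspase inhibitor, was the lowest of the 8 genes in all 4 libraries. It had 1.64 and 2.15 FPKM in biotin and 1.30 and 1.29 FPKM in control, with both biotin values above both controls and a log2 fold change of 0.33 ± 0.15. The row that carried it changed within a group. NM_001167 held all of it in biotin replicate 1 and control replicate 1, NM_001204401 held all of it in control replicate 2, and the rows held 81.5% and 18.5% in biotin replicate 2. Taking NM_001167 alone would put the log2 fold change at 0.83, with that row at 0 in control replicate 2. Of the 50-base words of XIAP, 4.89% occur in other genes, among them the pseudogene XIAPP1.

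BIRC6 (chromosome 2, 32357028 to 32618898) was the only one of the 8 whose biotin libraries both lay below both controls. It had 6.20 and 7.15 FPKM in biotin and 7.82 and 8.78 FPKM in control, a log2 fold change of -0.28 ± 0.16. With a transcript of 15702 nt, it had the most reads of the 8 genes in control, an estimated 1965 and 2457, and 1707 and 2654 in biotin.

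TRAF2 (chromosome 9, 136886513 to 136926615), the adaptor that recruits BIRC2 and BIRC3, had 17.0 and 13.7 FPKM in biotin and 9.12 and 11.5 FPKM in control. Both biotin values were above both controls, and the log2 fold change was 0.53 ± 0.20, the highest after BIRC2. RIPK1 (chromosome 6, 3076824 to 3115187), the kinase that the ligases modify, had 3.54 and 3.02 FPKM in biotin and 2.60 and 2.18 FPKM in control, also without overlap. Its log2 fold change was 0.34 ± 0.15. BIRC2 stood at 7.35 and 8.06 times TRAF2 in biotin and at 0.949 and 0.828 times TRAF2 in control. By listed FPKM the ligase was thus far above the adaptor in biotin and slightly below it in control. The confidence intervals listed for TRAF2 in control, 4.017 to 5.999 and 5.867 to 8.218 FPKM, do not contain its FPKM. They lie below BIRC2, so the order in control is not settled.

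DIABLO (chromosome 12, 122207662 to 122227534), the antagonist also called SMAC, had 9.95 and 11.35 FPKM in biotin and 12.9 and 9.95 FPKM in control. The groups overlapped, and the log2 fold change was -0.08 ± 0.19. It was 0.09 without control replicate 1, in which the row NM_019887, at 0 in the other libraries, held 54.5% of DIABLO. HTRA2 (chromosome 2, 74529405 to 74533556), a mitochondrial protease and the other antagonist, had 6.65 and 6.68 FPKM in biotin and 4.99 and 7.33 FPKM in control. These overlapped too, and the log2 fold change was 0.12 ± 0.20, or -0.12 without control replicate 1.

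Both antagonists share sequence with overlapping genes. Of the 50-base words of DIABLO, 52.5% occur in another gene, mainly the read-through gene AC048338.1 on the same strand and B3GNT4 on the other. In HTRA2 the share is 38%, in LOXL3 and AUP1 on the other strand. The strand setting of the authors' quantification is not given in the sources used here, so reads of these genes cannot be told apart with certainty. For RIPK1 the share is 4.62%, all antisense, for BIRC6 0.0319%, and for TRAF2 0%.

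Of the 8 genes, 1 was called higher in biotin, 0 were called lower and 7 were not called by limma at a Benjamini-Hochberg adjusted p of 0.05. Over all 9932 tested genes, 13.2% were called higher and 9.33% lower. That is 1308 higher and 927 lower genes, or 58.5% higher among the calls, against 47.0% with upper-quartile scaling and 66.3% with median-of-ratios scaling. Both biotin libraries stood above both controls in 4 of the 8 genes and below them in 1, against 29.4% and 37.7% of all tested genes. Nothing is read from these counts, since the same contrast chose the genes. In the 11 alternative fits the log2 fold change of BIRC2 was 3.12 to 3.68, which describes its value under other settings and is no test of it. None of the other 7 was called in any fit of all 4 libraries that tested it.

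**Figure D3:**
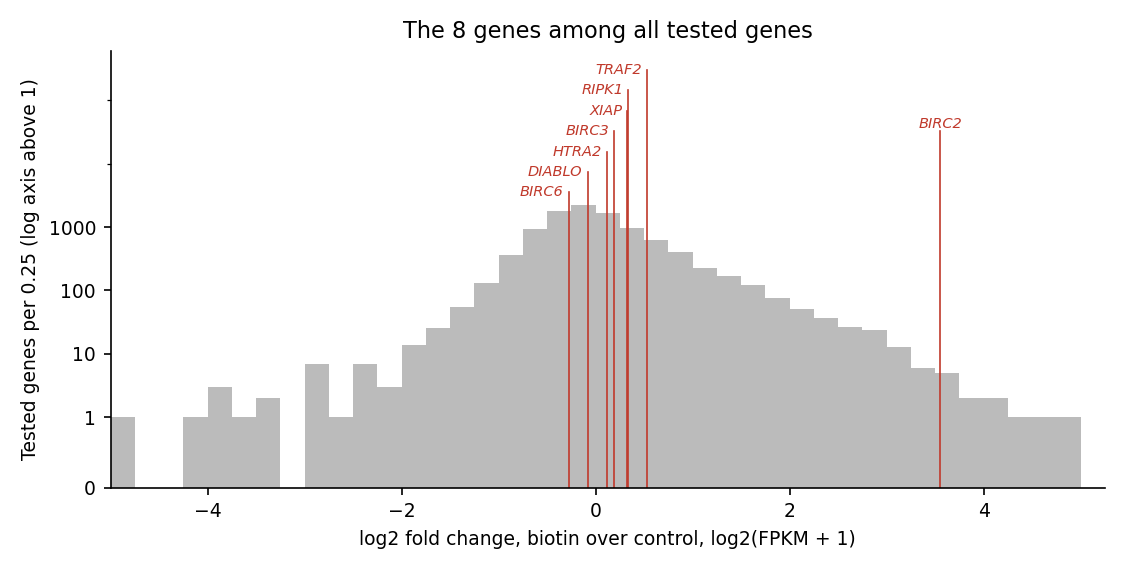
Histogram of log2 fold changes, biotin over control on the scale of log2(FPKM + 1), for the 9932 tested genes in bins of 0.25 with a count axis that is logarithmic above 1, and red lines at the 8 genes. BIRC2 lies at 3.55 in the thin right tail, and the other 7 lie between -0.28 and 0.53, near the median of all genes at -0.06.

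The 7 genes other than BIRC2 ran from -0.28 to 0.53 in log2 fold change, with a median of 0.19. With 2 libraries a group, an exact permutation test of a single gene could not give a p below 0.333, and none was run. A further limit is that 18 of the 45 row values above 0 lie outside the confidence interval that the same row lists, among them each value of BIRC6, TRAF2, RIPK1 and HTRA2. None of the BIRC2, BIRC3 and XIAP values does.

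Seed matches of the 8 genes were counted. In the most abundant transcript of each gene, a 7-letter match in the 3′ UTR was found in BIRC3 alone, 1 of 8 genes, against 12.1% of 9100 tested genes with a 3′ UTR. With the 6-letter match it was 3 of 8, BIRC2, BIRC3 and XIAP, against 34.5%. BIRC2 has a short 3′ UTR of 487 nt, and among 3′ UTRs of like length 3.97% hold the 7-letter match and 14.9% the 6-letter one. The windows of BIRC2 (chr11:102378225-102378253, 6 letters) and BIRC3 (chr11:102337492-102337521, 7 letters), both on the plus strand of GRCh38, are shown since they are the 3′ UTR seed matches of the paralogues. Capitals mark the match.
BIRC2 3′ UTR window: aaaatattgttgaacACTTGAagccatct
BIRC3 3′ UTR window: ctgaggcaagagaatTACTTGAgcccagga

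In coding sequence the 7-letter match occurred in 2 places in BIRC3, 2 in BIRC6 and 1 in DIABLO, and BIRC2 had none. BIRC2, with a seed match of 6 letters at most, had the large difference, and BIRC3, with 3 full matches, had a log2 fold change of 0.19. These are 2 genes, 1 of them chosen for its rise, and the part of seed matches was not tested. For BIRC3 the deposited row NM_001165 is 6911 nt long and the GENCODE transcript searched 4342 nt, so part of it was not searched. No match says only that these letters are not in the sequence searched.

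The longest complementary run had 12 letters in BIRC2, 9 in BIRC3 and BIRC6, 8 in DIABLO and HTRA2, 7 in XIAP and RIPK1 and 6 in TRAF2. A run of at least 7 letters was present in 87.3% of genes, so the shorter ones are the usual case. The run in BIRC6 faced nucleotides 1 to 9 and that in DIABLO nucleotides 1 to 8, which take in the seed, while that in HTRA2 faced nucleotides 10 to 17. CFLAR, a caspase-8 homologue that blocks death receptor signalling, also had a run of 12 letters, in its 3′ UTR and facing nucleotides 2 to 13. CFLAR had 10.85 and 10.5 FPKM in biotin and 11.1 and 10.3 FPKM in control, a log2 fold change of -0.01 ± 0.16. That is a single gene, and runs of this length were not compared by the side of miR-26a they face. FKBP14, with the same stretch as BIRC2, had 61.7 and 56.05 FPKM in biotin and 2.98 and 2.93 FPKM in control, a log2 fold change of 3.92 ± 0.16. It too is a single gene, found by a stretch taken from BIRC2, and a role of the stretch was not tested.

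Over all 9180 genes, the share called higher went up with the run. It was 6.09% of 1166 genes with a run of up to 6 letters, 10.1% of 3664 with 7, 14.5% of 2858 with 8 and 20.5% of 1081 with 9. It was 30.4% of 309 genes with 10 letters, 33.8% of 74 with 11 and 53.6% of 28 with 12 or more. Longer transcripts hold longer runs, with a median of 1480 nt in the first class and 4147 nt in the last. Among the 2229 genes with transcripts of 2995 to 4678 nt, near BIRC2 in length, the shares ran from 6.67% to 45.8% at 11 letters, and the last class held 7 genes. Of the 28 genes with 12 or more letters, BIRC2 among them, 15 were called higher, 2 lower and 11 not, and BIRC2 ranked second by log2 fold change.

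**Figure D4:**
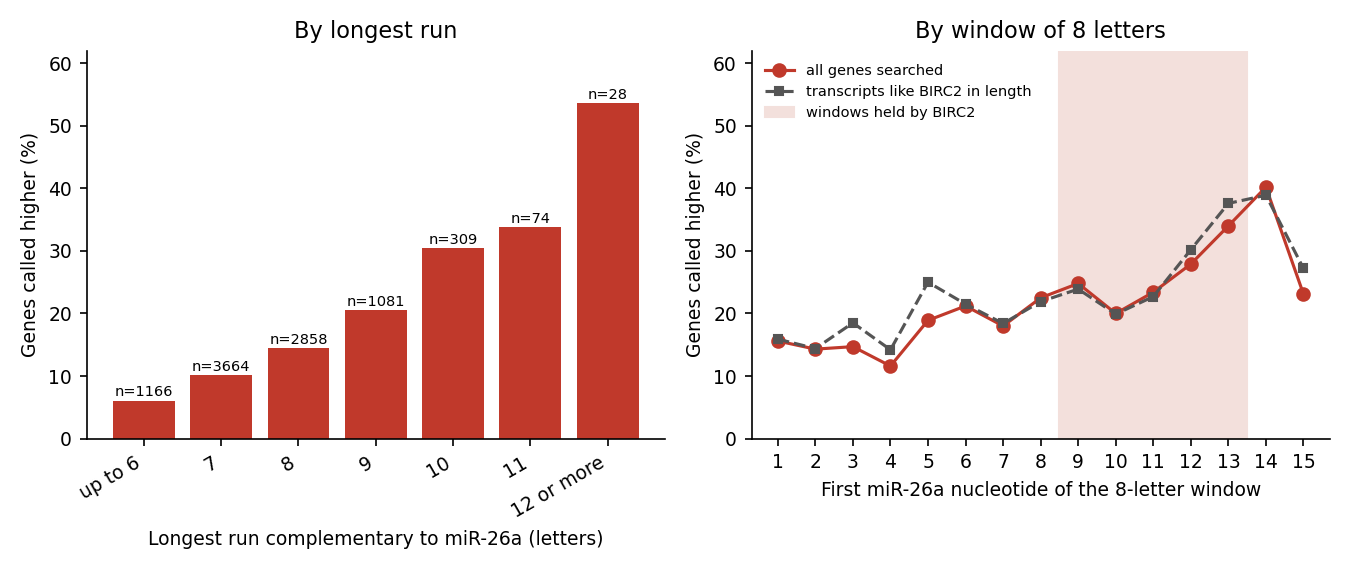
Percentage of genes called higher in biotin, by the longest run complementary to miR-26a in the gene's transcript (left, n above each bar) and by which 8-letter window of the complement it holds (right, first miR-26a nucleotide on the x axis). The left bars run from 6.09% to 53.6%, and on the right the windows held by BIRC2, shaded, span 20.0% to 34.0%, against 14.3% for the window at nucleotides 2 to 9.

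The part of miR-26a that was matched went with the share called higher as well. Genes with the 8 letters opposite nucleotides 2 to 9, where BIRC3 and BIRC6 have a match, were called higher in 14.3% of 586 cases. Those with the 8 letters opposite nucleotides 13 to 20, where BIRC2 has one, were called higher in 34.0% of 315. BIRC2 and BIRC3 both hold the windows opposite nucleotides 9 to 16, with 24.8% of 985 called higher, and 10 to 17, with 20.0% of 1273. HTRA2 holds the latter too. The highest share, 40.2% of 229, belonged to nucleotides 14 to 21, a window that none of the 8 genes holds. Genes can hold several windows, and the classes overlap.

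Predicted duplex energy gave another order of the 8 genes. The lowest energy of miR-26a with each transcript was -22.3 kcal/mol for BIRC2 and also for BIRC3, which 6.25% of genes reached. It was -19.9 kcal/mol for TRAF2, -19.5 for DIABLO, -19.4 for RIPK1, -19.1 for XIAP and -18.9 for BIRC6 and HTRA2, near the median of -18.8. BIRC2 and BIRC3 were therefore equal by energy and far apart in log2 fold change, 3.55 and 0.19. The lowest-energy site of BIRC2 was at 1657 to 1681 of the transcript and not at the 12-letter run, which begins at 2828. Genes at -24 kcal/mol or below were called higher in 56.2% of 153 cases, those from -24 to -22 in 38.5% of 590, and those above -18 in 4.8% of 3205. The part of pairing in the BIRC2 values was not tested.

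The genes beside BIRC2 did not share its values. YAP1, the Hippo pathway coactivator on the far side of BIRC3, had 4.74 and 4.78 FPKM in biotin and 7.33 and 7.62 FPKM in control and fell by 0.56 ± 0.14 on the log2 scale (limma adjusted p = 0.039). TMEM123, a membrane protein gene and the next one after BIRC2, had 24.6 and 35.4 FPKM in biotin and 44.2 and 60.9 FPKM in control, a log2 fold change of -0.79 ± 0.26 (limma adjusted p = 0.0742). MMP7 and MMP20 were listed at 0 in all 4 libraries. Of 13 genes listed around 11q22, 4 were tested. Among them DYNC2H1, a motor protein of cilia, rose, with 4.80 and 4.92 FPKM in biotin and 2.29 and 2.51 FPKM in control (log2 fold change 0.79 ± 0.14, limma adjusted p = 0.0134).

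The tested genes closest to BIRC2 over the 4 libraries, by Euclidean distance of log2(FPKM + 1), were CMTM7 (0.70), LAMP2 (0.71), APH1A (0.78), GNB1 (0.91) and DUSP11 (0.95). CMTM7 encodes a membrane protein, LAMP2 a lysosomal membrane protein, APH1A a subunit of gamma-secretase, GNB1 a G protein beta subunit and DUSP11 an RNA phosphatase. They were chosen for likeness to BIRC2, with 79.7 to 195.1 FPKM in biotin and 5.09 to 14.6 FPKM in control. Their longest runs complementary to miR-26a had 6 to 9 letters and their lowest duplex energies were all at -21.3 kcal/mol or below. Of all genes searched, 16% had an energy of -21.0 kcal/mol or below, a slightly looser limit. The 5 genes were picked for values like those of BIRC2, so nothing is read from their energies. A run as long as that of BIRC2 was absent from these 5 genes. Only 0.305% of all genes searched have one, so nothing is read from its absence.

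Genes of the same pathways were taken from 8 lists, with 88 genes of which 68 were tested. Of these, 7 were called higher and 5 lower, or 10.3% and 7.35%, against 13.2% and 9.33% of all tested genes, and their median log2 fold change was -0.12 against -0.06. The lists are small, and nothing is read from the counts of a single list below. None of the 12 called genes passed in all 4 fits that leave out a library: CXCL2 did not pass without control replicate 1, NFKBIB passed without biotin replicate 1 alone, and the others passed in none of the 4. With no filter on low values, CXCL2 and NFKBIB alone were called. Their direction was the same in every alternative run.

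In the BIRC family, BIRC5, the mitotic protein survivin, had 45.2 and 26.2 FPKM in biotin and 20.0 and 20.9 FPKM in control, a log2 fold change of 0.73 ± 0.28 (limma adjusted p = 0.104). It passed without biotin replicate 2, at 1.11. NAIP and BIRC8 were listed at 0, and BIRC7 was below 0.18 FPKM throughout, so none of these 3 was tested. Of 4 tested genes whose proteins bind these inhibitors or work with them, 1 was called higher and none lower. That gene, SEPTIN4, which encodes the XIAP-binding protein ARTS, had 1.38 and 1.23 FPKM in biotin and 0.187 and 0.519 FPKM in control, a log2 fold change of 0.78 ± 0.18. It reached the minimum of 1 FPKM in the biotin libraries alone, so its call (limma adjusted p = 0.0282) depends on the group where it is high, and with no filter the limma adjusted p was 0.0702. UBA6, the ubiquitin-activating enzyme that serves BIRC6, had a log2 fold change of -0.46 (limma adjusted p = 0.102).

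Among the caspases and their activators, 9 of 9 were tested, none rose, and the median was -0.16. CYCS, or cytochrome c, which starts caspase activation when it leaves the mitochondria, had 6.86 and 7.76 FPKM in biotin and 10.5 and 12.65 FPKM in control, a log2 fold change of -0.60 ± 0.17 (limma adjusted p = 0.0535). Of 8 tested death receptors and adaptors 2 were called lower, or 25.0% against 9.33% of all tested genes. None was called higher, against 13.2% of all, and the median was -0.21. MLKL, the pore-forming protein of necroptosis, had 1.84 and 1.80 FPKM in biotin and 3.11 and 3.24 FPKM in control (limma adjusted p = 0.0312). With no filter its limma adjusted p was 0.0873. FAS, a death receptor, had 0.894 and 0.927 FPKM in biotin and 1.76 and 1.79 FPKM in control, and reached the minimum of 1 FPKM in the control libraries alone. Its call (limma adjusted p = 0.0379) thus depends on the group where it is high, and with no filter the limma adjusted p was 0.0785.

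In the ubiquitin and kinase complex of the TNF receptor, 20 of 22 genes were tested, 2 rose and none fell, and the median was -0.12. The share called higher was 10.0%, against 13.2% of all tested genes. TRAF3, which joins TRAF2 and the BIRC2 ligase in holding down the non-canonical NF-kB kinase, had 8.59 and 9.60 FPKM in biotin and 5.01 and 5.77 FPKM in control (log2 fold change 0.66 ± 0.16, limma adjusted p = 0.0327). TAB2, an adaptor of the kinase TAK1, rose by 0.60 ± 0.16 (limma adjusted p = 0.0463). Of the 12 NF-kB subunits and non-canonical pathway genes, 1 rose and 1 fell, or 8.33% each, against 13.2% and 9.33% of all tested genes. NFKBIB, the inhibitor IkB-beta, had 5.27 and 6.07 FPKM in biotin and 2.41 and 2.47 FPKM in control (log2 fold change 0.95 ± 0.14, limma adjusted p = 0.00848). NFKBIA, the inhibitor IkB-alpha, had 35.65 and 37.9 FPKM in biotin and 54.8 and 73.5 FPKM in control (log2 fold change -0.77 ± 0.22, limma adjusted p = 0.0488). These inhibitors of the same factor thus went in opposite directions.

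NF-kB target genes had 10 of 14 tested, 2 higher and none lower, with a median of 0.09. The share called higher was 20.0%, against 13.2% of all tested genes. CXCL2, a chemokine that attracts neutrophils, had 52.55 and 61.4 FPKM in biotin and 11.2 and 17.6 FPKM in control, the largest change in the 8 lists (log2 fold change 1.94 ± 0.25, limma adjusted p = 0.00513). Without control replicate 1 its log2 fold change was 1.64. Its relative CXCL1 had 10.0 and 8.63 FPKM in biotin and 5.32 and 4.65 FPKM in control (log2 fold change 0.79 ± 0.16, limma adjusted p = 0.0216). TNF, IL1B and IER3 were listed at 0.

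**Figure D5:**
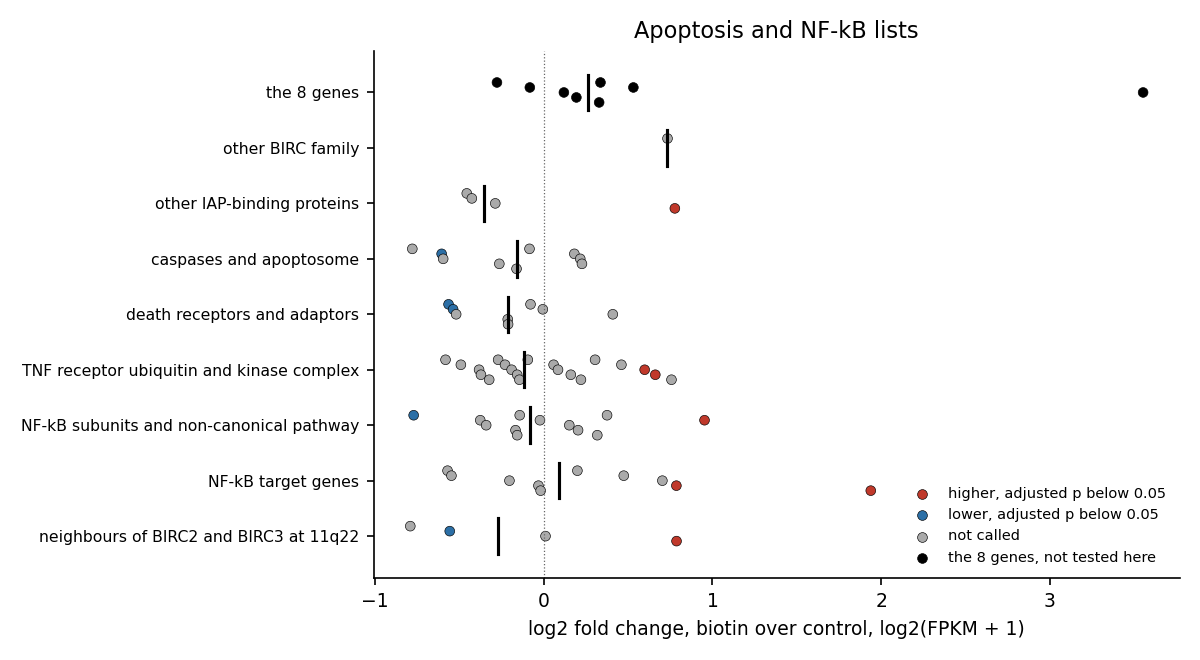
Log2 fold change, biotin over control on the scale of log2(FPKM + 1), of the 8 genes (black) and of the tested genes of 8 pathway lists (red called higher, blue called lower, grey not called), with a vertical bar at each median. BIRC2 at 3.55 is the point farthest to the right, and CXCL2 at 1.94 is the next.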

How the data were processed

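For each library the authors deposited 1 table from Cufflinks, of 53209 transcript rows. Per the file headers the values are FPKM, and the same tables give the coverage of each transcript and an interval. The build was hg38 and the tools were TopHat2 2.0.9, Cufflinks 2.1.1, Cuffdiff, cutadapt and FastQC 0.10.1, per the submitters' processing notes. Settings and annotation were not given in the sources used here. Libraries were TruSeq Stranded Total RNA, read as single reads of 50 bases, per the labels' protocols. The series design calls the 2 libraries of a group biological replicates.

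Accessions were given symbols from the RefSeq gene table and GENCODE 29 (98.6% of 46699), and FPKM was summed per gene. Depth was estimated from the deposited coverage and FPKM and the read length. Genes with a failed or excess-data row (22) or of short structured RNAs (294) were left out, and genes with at least 1 FPKM in at least 2 libraries were tested. limma 3.58.1 (R 4.3.3; lmFit, eBayes with a trend, two-sided, Benjamini-Hochberg over 9932 genes) was run on log2(FPKM + 1), which understates the change of low genes, and was tested on simulated data. Alternatives were pseudocounts of 0.1 and 5, no filter, a mean of at least 5 FPKM, upper-quartile and median-of-ratios scaling, a replicate block, leaving out each library, the most abundant row and a 6-letter seed match.

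Members and lists were chosen with earlier results of these data known. Apart from the 8 members, named genes were up to 4 called genes of each list with the largest change, filled to 2 by mean FPKM, the 5 genes nearest to BIRC2 and its neighbours. A gene of the caspase list that this rule names is not reported here. The searches for runs, windows and duplex energies (RNAplex 2.7.2) were added after the values of BIRC2 were seen. They used 1 GENCODE transcript per gene, that of the most abundant row or, for RIPK1 and others with no link, the longest coding one. Transcripts near BIRC2 in length were 0.8 to 1.25 times as long, and so were 3′ UTRs of like length. Libraries correlated at Pearson r = 0.970 within biotin and 0.971 within control, and at 0.876 to 0.883 between groups, across genes, which are not independent replicates.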

Additional observations from a re-analysis of the deposited data

How the results depend on the processing

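The counts of higher and lower genes were 1308 and 927. They were 653 and 231 with no filter on low values, 195 to 677 and 32 to 220 with a library left out, and 1079 and 535 with the replicate block. Leaving out a library left 1 in its group, whose spread was then taken from the other group. The labels state no pairing. The differences between replicates 1 and 2 correlated at r = 0.003 between the groups across genes, so no shift common to same-numbered libraries was seen. This cannot show that such libraries were handled apart. BIRC2 had log2 fold changes of 3.47 to 3.64 with a library left out, and 3.68 and 3.12 with pseudocounts of 0.1 and 5. DIABLO was at 0.19 and XIAP at 0.83 with the most abundant row alone. Pseudocounts of 0.1 and 5 put XIAP at 0.50 and 0.13, and one of 5 put RIPK1 at 0.16. With the 6-letter in place of the 7-letter seed match, 3 of the 8 genes held one. The 16 genes named from the lists or beside BIRC2 gave 169 values under alternatives, of which 66 were no longer past the threshold, 4 newly passed it and 0 changed direction; the cause was not tested. XIAP, at 175 to 428 estimated reads, and RIPK1, at 151 to 277, are limited most by depth.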
